A study of Mus musculus with 18 samples.

Results

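A set of 10 trophoblast and placental hormone genes of the mouse was followed through the differentiation of embryonic stem cells (ESCs) with and without DNA methyltransferases. A probe set was taken wherever its gene symbol entry held Tpbpa, Prl7d1, Prl2c5, Prl3d1, Prl4a1, Plac1, Gcm1, Ascl2, Elf5 or Hand1os. This found 7 of the 10 genes, each with 1 probe set, among 35512 probe sets in all. Prl3d1, Gcm1 and Hand1os matched no symbol entry and were not analysed here. RNA came from J1 (129Sv/Jae) ESCs of 3 genotypes, taken undifferentiated at day 0 and as embryoid bodies (EBs, hanging drop aggregates grown without LIF) at day 4 and day 16. Wild type (wt) cells carry all methyltransferase genes, Dnmt1-/- cells lack the maintenance enzyme Dnmt1, and TKO cells lack Dnmt1 together with the de novo enzymes Dnmt3a and Dnmt3b. Each of the 9 groups of genotype and day had 2 arrays, which the labels call biological replicates 1 and 2. The sources name no second clone of any genotype, so a difference between genotypes is a difference between these lines.

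Trophoblast is the first lineage to part from the embryo proper and builds most of the placenta, and ESCs give rise to it poorly. In the mouse, a network of Cdx2, Eomes and Elf5 maintains trophoblast stem cells, Ascl2 is needed for the spongiotrophoblast, and the mature layers and giant cells secrete a large family of hormones related to prolactin. DNA methylation is known as a barrier between the lineages, and the Elf5 promoter, methylated in ESCs and unmethylated in trophoblast stem cells, is its best known example. Methylation itself was not measured on these arrays.

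The promoter windows of the hormone genes and Tpbpa are shown first, since these genes share a late time course in wt, and that of Ascl2 is set beside them for its different base composition. The windows come from RefSeq (GRCm38.p6) and run from 250 bases before to 50 bases after the transcription start, 5′ to 3′ on the strand of the gene, with CG dinucleotides, the sites that methyltransferases act on, in capitals. Prl2c5 lies at chr13:13182466-13182765 (+), Prl7d1 at chr13:27716688-27716987 (-), Prl4a1 at chr13:28015962-28016261 (+), Tpbpa at chr13:60941887-60942186 (-) and Ascl2 at chr7:142969215-142969514 (-).
Prl2c5: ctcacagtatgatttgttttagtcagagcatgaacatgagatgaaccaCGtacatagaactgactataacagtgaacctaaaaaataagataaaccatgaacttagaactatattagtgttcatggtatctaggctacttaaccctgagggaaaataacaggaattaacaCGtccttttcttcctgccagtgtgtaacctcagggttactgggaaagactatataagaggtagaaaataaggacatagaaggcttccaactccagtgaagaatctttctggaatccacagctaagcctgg
Prl7d1: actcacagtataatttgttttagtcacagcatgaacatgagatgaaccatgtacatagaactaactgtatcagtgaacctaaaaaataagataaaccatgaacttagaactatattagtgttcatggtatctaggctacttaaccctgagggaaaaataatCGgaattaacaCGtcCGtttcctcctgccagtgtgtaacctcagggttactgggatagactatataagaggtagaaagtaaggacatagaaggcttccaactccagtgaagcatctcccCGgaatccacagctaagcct
Prl4a1: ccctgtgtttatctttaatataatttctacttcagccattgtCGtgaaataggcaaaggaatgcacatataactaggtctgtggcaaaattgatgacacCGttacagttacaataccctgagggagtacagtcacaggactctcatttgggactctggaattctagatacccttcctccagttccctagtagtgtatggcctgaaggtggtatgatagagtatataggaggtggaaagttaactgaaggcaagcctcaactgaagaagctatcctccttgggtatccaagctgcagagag
Tpbpa: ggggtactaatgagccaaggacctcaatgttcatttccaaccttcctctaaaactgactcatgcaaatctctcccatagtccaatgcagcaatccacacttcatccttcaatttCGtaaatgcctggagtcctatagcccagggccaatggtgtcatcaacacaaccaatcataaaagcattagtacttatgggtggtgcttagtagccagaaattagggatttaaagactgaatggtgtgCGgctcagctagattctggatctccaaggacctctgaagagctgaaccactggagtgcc
Ascl2: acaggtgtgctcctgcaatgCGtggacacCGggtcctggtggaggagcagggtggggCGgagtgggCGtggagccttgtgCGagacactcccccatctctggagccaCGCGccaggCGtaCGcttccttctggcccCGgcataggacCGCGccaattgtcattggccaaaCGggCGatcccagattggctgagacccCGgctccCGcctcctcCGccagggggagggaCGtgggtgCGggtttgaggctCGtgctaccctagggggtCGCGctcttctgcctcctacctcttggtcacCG

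The windows of the hormone genes and Tpbpa were poor in CG. Those of Tpbpa, Prl2c5 and Prl4a1 held 2 each and that of Prl7d1 held 4, against a median of 8 over the 27025 genes with a window of the same length. Plac1 had 6, Elf5 10 and Ascl2 23, and 76.5% of all genes had fewer than Ascl2. For a gene with several windows, as Prl7d1, Plac1 and Elf5 have, the window with the most CG was used. The windows of Prl2c5 and Prl7d1 were identical at 282 of 302 aligned positions (93.4%), whereas all other pairs of members shared 35.3% to 49.2%. The word TATATA or TATAAA on the strand of the gene, which 12.9% of all genes had anywhere in the window, began at -31 in Prl2c5, -30 in Prl4a1, -29 in Prl7d1 and -27 in Plac1, counted from the start. GATAA on either strand, found in 25.2% of all genes, occurred in Prl7d1, Prl2c5, Prl4a1 and Elf5. TGANTCA, the AP-1 word, occurred in Tpbpa alone among the 7 and in 7.74% of all genes. Such matches of letters are descriptions and show no binding.

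**Figure D1:**
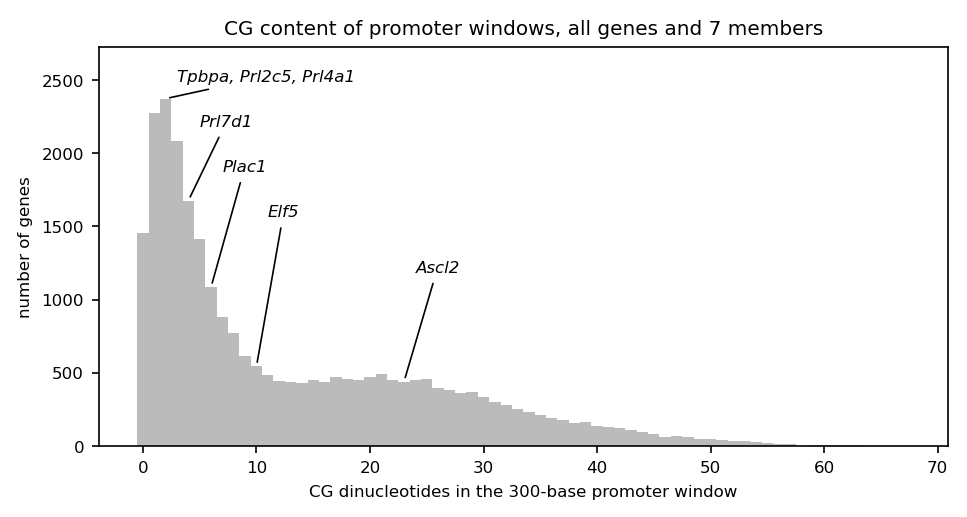
CG dinucleotides in promoter windows of 300 bases. Grey bars give the number of genes (vertical axis) with each count (horizontal axis), and lines mark the 7 members, with Tpbpa, Prl2c5 and Prl4a1 at 2 and Ascl2 at 23.

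The spread of the CG counts puts the hormone genes and Tpbpa at the left of the plot and Ascl2 in its broad right shoulder. Prl2c5 is named for the proliferins, a group of near copies in the genome. Close relatives within the Prl2c and Prl3d groups may share probes, so a signal given for one of them is uncertain as to its source.

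Signals are log2 values, so that 1 unit is 2-fold, and those of different probe sets were not compared with each other. A gene was called when limma gave an absolute log2 difference of at least 1 and an adjusted p under 0.05. Array medians lay between 5.77 and 5.90, and the arrays of a group correlated at r = 0.981 to 0.991 over all probe sets. The lowest Dnmt1 signal among the 6 wt arrays was 9.16, and the highest among the 12 mutant arrays was 8.86. At day 0, Dnmt3a read 7.42 to 7.65 in TKO against 8.87 to 9.45 in wt, and Dnmt3b 7.33 to 7.45 against 9.80 or more. Dnmt3a stayed lower in TKO than in wt at day 16 (6.67 or less against 8.53 and 8.95). Dnmt3b did not separate these genotypes at day 16, at 7.52 and 7.71 in TKO and 7.16 and 7.41 in wt. Where the probes lie relative to the deleted parts is not known here, and a probe outside them checks nothing.

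The prolactin family hormones among the members (Prl2c5, Prl7d1 and Prl4a1) stayed low until day 4 and rose by day 16 in all 3 genotypes. Prl2c5 encodes a proliferin, a growth and angiogenic hormone of giant cells. In wt, Prl2c5 read 2.92 and 3.17 in ESCs, 2.72 and 3.14 in day 4 EBs, and 7.12 and 10.81 in day 16 EBs (replicates 1 and 2 throughout). In Dnmt1-/-, Prl2c5 read 2.87 and 3.21, then 2.96 and 2.66, then 9.58 and 10.02. In TKO, Prl2c5 read 3.0 and 3.03, then 3.33 and 3.33, then 7.47 and 9.37. Every day 16 array lay above every earlier array, and the wt day 16 arrays enclosed all 4 mutant arrays of that day. From day 4 to day 16, Prl2c5 rose by 6.04 in wt (SE 0.86, limma adjusted p = 0.000522), by 6.99 in Dnmt1-/- (SE 0.86, limma adjusted p = 0.000394) and by 5.09 in TKO (SE 0.86, limma adjusted p = 0.00996). The wt rise was 7.88 without wt day 16 replicate 1 and 4.19 without replicate 2. In TKO the call was lost without either day 4 array or without day 16 replicate 2 (5.09, 5.09 and 4.14, adjusted p = 0.095, 0.0664 and 0.104 by limma).

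**Figure D2:**
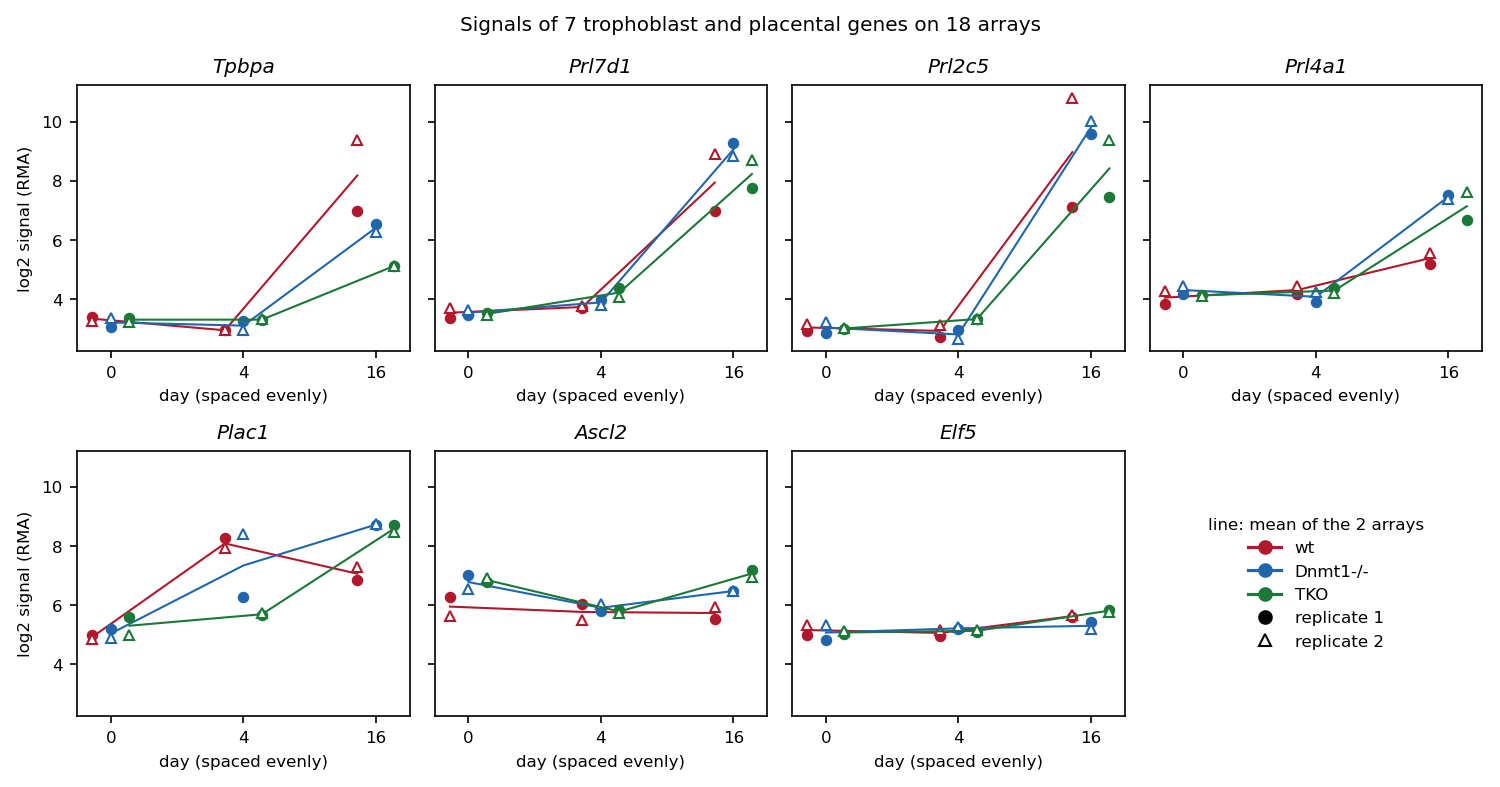
Signals of the 7 members. The horizontal axis gives the day, spaced evenly, and the vertical axis the log2 RMA signal, each symbol is 1 array and lines join the means of the 2 arrays of a group. The hormone genes are near their day 0 level at day 4 and above it at day 16, with no day sampled between. Plac1 is already at 8.26 and 7.92 in wt at day 4.

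The plot of all member signals shows the same timing for Prl7d1, the proliferin-related protein that inhibits vessel growth. In wt, Prl7d1 read 3.38 and 3.71 at day 0, 3.70 and 3.78 at day 4, and 6.98 and 8.90 at day 16. In Dnmt1-/-, Prl7d1 read 3.47 and 3.63, then 3.99 and 3.80, then 9.27 and 8.85. In TKO, Prl7d1 read 3.54 and 3.47, then 4.38 and 4.08, then 7.76 and 8.69. The genotypes overlapped on day 16, with wt replicate 1 the lowest array. Prl7d1 rose from day 4 to day 16 by 4.20 in wt (SE 0.46, limma adjusted p = 7.71e-05), by 5.17 in Dnmt1-/- (limma adjusted p = 4.54e-05) and by 4.00 in TKO (limma adjusted p = 0.00122). The wt rise was 5.16 without day 16 replicate 1 and 3.24 without replicate 2, and both were called.

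Prl4a1, a placental hormone known for its action on uterine natural killer cells, behaved differently between the genotypes. In wt, Prl4a1 read 3.83 and 4.28 at day 0, 4.19 and 4.44 at day 4, and 5.20 and 5.58 at day 16. In Dnmt1-/-, Prl4a1 read 4.19 and 4.43, then 3.91 and 4.26, then 7.54 and 7.39. In TKO, Prl4a1 read 4.14 and 4.12, then 4.37 and 4.22, then 6.66 and 7.62. All 4 mutant arrays of day 16 lay above both wt arrays of that day. The rise from day 4 to day 16 was 1.08 in wt (SE 0.27, limma adjusted p = 0.0181), 3.38 in Dnmt1-/- (limma adjusted p = 1.72e-05) and 2.85 in TKO (limma adjusted p = 0.000391). The wt call was lost without day 4 replicate 1 (0.95, limma adjusted p = 0.119), without day 16 replicate 2 (0.89, limma adjusted p = 0.155) and with only the compared arrays in the fit (limma adjusted p = 0.0648).

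Tpbpa, the marker of the spongiotrophoblast and its precursors in the ectoplacental cone, had the opposite order at day 16. In wt, Tpbpa read 3.40 and 3.28 at day 0, 2.95 and 2.95 at day 4, and 6.98 and 9.38 at day 16. In Dnmt1-/-, Tpbpa read 3.05 and 3.38, then 3.26 and 2.96, then 6.55 and 6.27. In TKO, Tpbpa read 3.38 and 3.24, then 3.30 and 3.32, then 5.12 and 5.13. At day 16 the genotypes did not overlap, with wt highest, Dnmt1-/- next and TKO lowest. From day 4 to day 16, Tpbpa rose by 5.23 in wt (SE 0.51, limma adjusted p = 2.69e-05) and by 3.31 in Dnmt1-/- (SE 0.51, limma adjusted p = 0.00199). In TKO the difference was 1.82 (SE 0.51, limma adjusted p = 0.0869), which was not called, although both day 16 arrays exceeded both day 4 arrays, and a fit of only the compared arrays called it (limma adjusted p = 0.0224). The wt rise was 6.43 without day 16 replicate 1 and 4.03 without replicate 2.

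Plac1 is an X-linked gene of the placenta that is needed for its normal growth, and it was the 1 member that rose early. In wt, Plac1 read 5.0 and 4.87 at day 0, 8.26 and 7.92 at day 4, and 6.86 and 7.28 at day 16. In Dnmt1-/-, Plac1 read 5.21 and 4.88, then 6.29 and 8.40, then 8.70 and 8.74. In TKO, Plac1 read 5.62 and 5.0, then 5.66 and 5.73, then 8.71 and 8.48. The wt arrays peaked at day 4, whereas the TKO arrays of day 4 still lay close to those of day 0. From day 0 to day 4, Plac1 rose by 3.16 in wt (SE 0.47, limma adjusted p = 0.00118) and by 2.30 in Dnmt1-/- (SE 0.47, limma adjusted p = 0.00831), and differed by 0.39 in TKO (SE 0.47, limma adjusted p = 0.746). The Dnmt1-/- rise rested on arrays far apart: it was 3.35 without day 4 replicate 1 and 1.24 without day 4 replicate 2, both called. It was not called without day 0 replicate 2 (2.13, limma adjusted p = 0.0673) or with only the compared arrays in the fit (limma adjusted p = 0.157).

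From day 4 to day 16, Plac1 rose by 2.90 in TKO (SE 0.47, limma adjusted p = 0.00859), while the difference was 1.38 in Dnmt1-/- (limma adjusted p = 0.135) and -1.02 in wt (limma adjusted p = 0.205). The TKO call was lost without day 4 replicate 1 (2.86, limma adjusted p = 0.0861), day 4 replicate 2 (2.93, limma adjusted p = 0.0568) or day 16 replicate 2 (3.01, limma adjusted p = 0.0539). Without Dnmt1-/- day 4 replicate 2, the Dnmt1-/- difference became 2.43 and was called (limma adjusted p = 0.000625).

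Ascl2, an imprinted transcription factor needed for spongiotrophoblast, had no single direction. In wt, Ascl2 read 6.28 and 5.64 at day 0, 6.04 and 5.51 at day 4, and 5.53 and 5.94 at day 16. In Dnmt1-/-, Ascl2 read 7.02 and 6.55, then 5.79 and 6.04, then 6.48 and 6.49. In TKO, Ascl2 read 6.77 and 6.93, then 5.83 and 5.75, then 7.19 and 6.96. The TKO arrays were high at day 0, low at day 4 and high again at day 16, and the wt arrays of the 3 days overlapped. In TKO, Ascl2 fell by 1.07 from day 0 to day 4 (SE 0.24, limma adjusted p = 0.021) and rose by 1.28 from day 4 to day 16 (SE 0.24, limma adjusted p = 0.0163). Both calls were lost without any 1 of the 4 arrays compared, with differences of -1.15 to -0.99 for the fall (limma adjusted p = 0.0815 to 0.135) and of 1.17 to 1.40 for the rise (limma adjusted p = 0.0737 to 0.12), and that of the rise also with only the compared arrays in the fit (limma adjusted p = 0.0575). In Dnmt1-/- the difference from day 0 to day 4 was -0.87 (limma adjusted p = 0.0416), short of 2-fold, and without day 0 replicate 2 it was -1.10 and called (limma adjusted p = 0.048).

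Elf5, the ETS factor of trophoblast stem cells, stayed within a narrow range of 4.83 to 5.86 over the 18 arrays and was called in no comparison. The wt arrays of day 16 read 5.59 and 5.67, those of Dnmt1-/- 5.42 and 5.19, and those of TKO 5.86 and 5.78. At earlier days all arrays lay between 4.83 and 5.34, so the day 16 arrays of wt and TKO exceeded every earlier array. The difference from day 0 to day 16 was 0.74 in TKO (SE 0.17, limma adjusted p = 0.0279) and 0.47 in wt (SE 0.17, limma adjusted p = 0.0711), and that from day 4 to day 16 was 0.57 in wt (limma adjusted p = 0.0475), all short of 2-fold.

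Counted over the members, 1 of 7 was called higher from day 0 to day 4 in wt (2.43% of all probe sets were called higher) and in Dnmt1-/- (2.56%), and 1 of 7 lower in TKO (0.898% called lower). From day 4 to day 16, 4 of 7 members were called higher in wt (3.94% of all probe sets), 4 in Dnmt1-/- (2.39%) and 5 in TKO (0.794%), and none was called lower. The median difference of the members in that interval was 1.08 in wt, 3.31 in Dnmt1-/- and 2.85 in TKO, against -0.08, -0.07 and 0.01 over all probe sets. The TKO count was 2 without either day 4 array or without day 16 replicate 2. From day 0 to day 16, 5 members were called higher in wt (6.17% of all probe sets), 5 in Dnmt1-/- (4.8%) and 4 in TKO (1.87%). The members beyond these counts were Ascl2 and Elf5 in wt and Dnmt1-/-, and in TKO Tpbpa as well (1.82, limma adjusted p = 0.06, and called with the replicate number as a block, limma adjusted p = 0.0472). In bulk RNA of this kind, fewer cells of a type and less RNA per cell cannot be told apart.

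Undifferentiated mutant and wt cells gave no call for the members. At day 0, none of the 7 was called between Dnmt1-/- and wt (0.355% of all probe sets were), between TKO and wt (0.304%) or between TKO and Dnmt1-/- (0.00563%). At an unadjusted limma p under 0.05 the counts were 1, 1 and 0. That gene was Ascl2, with differences of 0.83 in Dnmt1-/- (SE 0.24, limma adjusted p = 0.37) and 0.90 in TKO (SE 0.24, limma adjusted p = 0.168), where all 4 mutant arrays exceeded both wt arrays. Counts at the unadjusted limit have no share of all probe sets beside them, here or below, so they were not weighed against one. The 4 hormone and spongiotrophoblast genes Prl2c5, Prl7d1, Prl4a1 and Tpbpa read between 2.87 and 4.43 on all 6 ESC arrays.

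At day 4, Plac1 was lower in TKO than in wt by the fit (-2.39, SE 0.47, limma adjusted p = 0.00977), the 1 member called of 7 (0.805% of all probe sets were called lower). The call was lost without wt day 4 replicate 1 (-2.23, limma adjusted p = 0.0906), TKO day 4 replicate 1 (-2.36, limma adjusted p = 0.0681) or TKO day 4 replicate 2 (-2.43, limma adjusted p = 0.0683). None was called between Dnmt1-/- and wt (0.738% of all probe sets were) or between TKO and Dnmt1-/- (0.848%), with 0 and 1 members at an unadjusted limma p under 0.05. Plac1 decided these counts too: without Dnmt1-/- day 4 replicate 2 it was called lower in Dnmt1-/- than in wt (-1.80, limma adjusted p = 0.00509), and without Dnmt1-/- day 4 replicate 1 it was called lower in TKO than in Dnmt1-/- (-2.70, limma adjusted p = 0.000657).

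At day 16, Prl4a1 was higher in both mutants, Ascl2 was higher in TKO and Tpbpa was lower in TKO than in wt. The difference of Prl4a1 was 2.08 in Dnmt1-/- (SE 0.27, 4.21-fold, limma adjusted p = 0.000516), the 1 member called of 7 (1.53% of all probe sets were called higher). In TKO, 2 members were called higher (2.4% of all probe sets) and 1 lower (3.43%): Prl4a1 by 1.76 (SE 0.27, limma adjusted p = 0.000836), Ascl2 by 1.33 (SE 0.24, limma adjusted p = 0.00275) and Tpbpa by -3.05 (SE 0.51, limma adjusted p = 0.00142). The Tpbpa difference was -4.25 without wt day 16 replicate 1 and -1.86 without replicate 2, both called. With only the 4 compared arrays in the fit, neither Tpbpa (limma adjusted p = 0.0908) nor Prl4a1 (limma adjusted p = 0.0599) was called between TKO and wt.

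Plac1 lay 1.66 above wt in Dnmt1-/- (SE 0.47, limma adjusted p = 0.0664) and 1.53 above wt in TKO (SE 0.47, limma adjusted p = 0.052), neither called, with all 4 mutant arrays above both wt arrays. With the replicate number as a block, Plac1 was called in TKO (limma adjusted p = 0.0495). A fit of only the compared arrays called Plac1 in Dnmt1-/- (limma adjusted p = 0.0353) and in TKO (limma adjusted p = 0.0266), and quantile normalization and the omission of the dimmest 30% of probe sets also called it in TKO (limma adjusted p = 0.0459 and 0.0393). The Tpbpa difference between Dnmt1-/- and wt was -1.77 (SE 0.51, limma adjusted p = 0.0665), and without wt day 16 replicate 1 it was -2.97 and called (limma adjusted p = 6.86e-06). Prl2c5 and Prl7d1 had no call in either mutant, and their differences turned on which wt array was kept. Without wt replicate 2, Prl7d1 was called higher in Dnmt1-/- (2.08, limma adjusted p = 0.00355) and in TKO (1.25, limma adjusted p = 0.0331), and Prl2c5 higher in Dnmt1-/- (2.68, limma adjusted p = 0.0202). Without wt replicate 1, Prl2c5 was called lower in TKO (-2.40, limma adjusted p = 0.0163). Between TKO and Dnmt1-/-, none of the 7 was called (1.07% of all probe sets were), and 3 had an unadjusted limma p under 0.05.

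**Figure D3:**
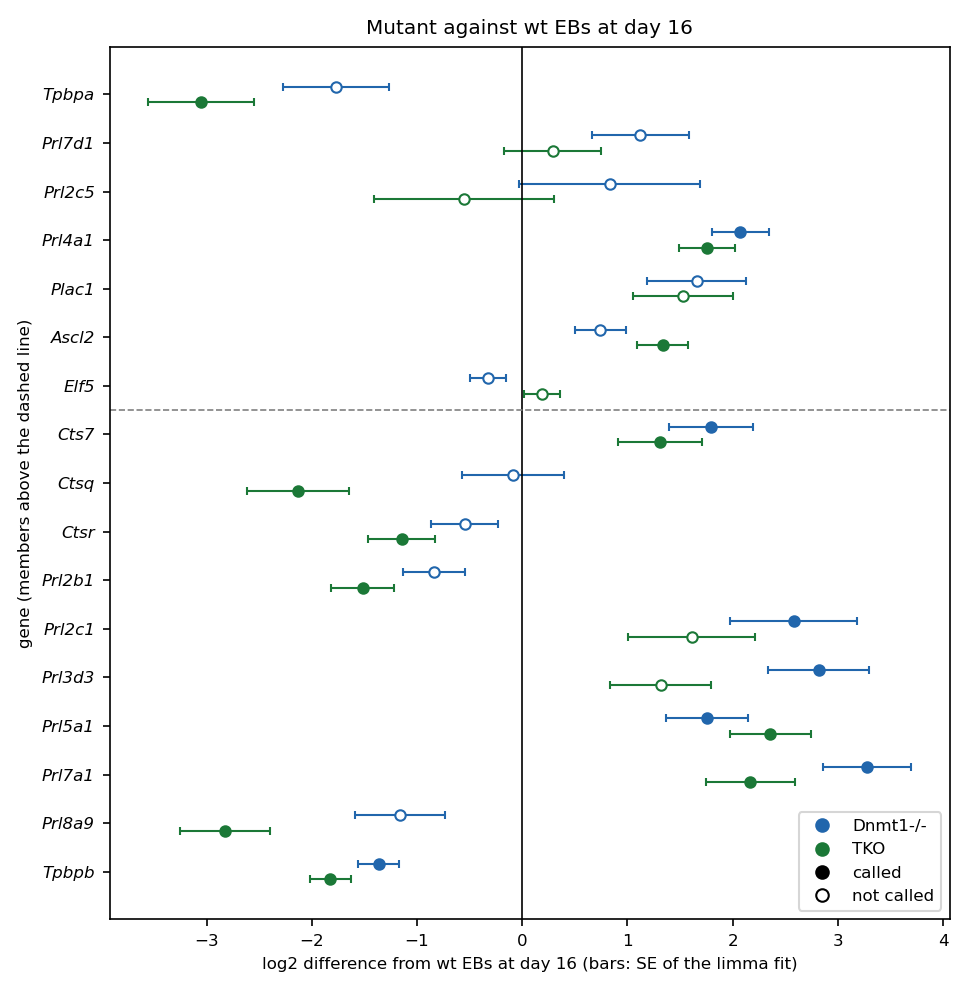
Differences of the mutants from wt EBs at day 16. The horizontal axis gives the log2 difference with the SE of the limma fit, the vertical axis lists the members and, under the dashed line, the relatives called in either mutant, and filled symbols were called. Prl4a1 lies right of 0 in both mutants and Tpbpa left of 0 in both, filled in TKO only.

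The plot of mutant differences at day 16 places Tpbpa beside its relative Tpbpb and the hormones Prl8a9 and Prl2b1 on the low side. Prl7a1, Prl5a1 and Prl3d3 lie with Prl4a1 on the high side.

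The change from day 4 to day 16 was also compared between genotypes directly, as a difference of differences. Prl4a1 rose by 2.30 more in Dnmt1-/- than in wt (SE 0.38, limma adjusted p = 0.0131), the 1 member called (0.251% of all probe sets were called higher). In TKO against wt, 2 members were called higher (0.659%) and 1 lower (2.24%): Plac1 changed by 3.92 more (SE 0.67, limma adjusted p = 0.00641), Prl4a1 by 1.77 more (SE 0.38, limma adjusted p = 0.0241) and Tpbpa by -3.41 (SE 0.71, limma adjusted p = 0.0209). The Plac1 call held without any 1 of the 8 arrays, at 3.71 to 4.13. The Prl4a1 call of Dnmt1-/- was lost without wt day 4 replicate 2 (2.18), Dnmt1-/- day 4 replicate 1 (2.13) or Dnmt1-/- day 16 replicate 1 (2.23), with limma adjusted p = 0.0573 to 0.0629. The Prl4a1 call of TKO was lost without either day 4 array of wt or TKO, wt day 16 replicate 1 or TKO day 16 replicate 2 (1.29 to 1.90, limma adjusted p = 0.0528 to 0.0905). The Tpbpa call was lost without either day 4 array of wt or either TKO array of day 4 or day 16 (-3.43 to -3.40, limma adjusted p = 0.0558 to 0.0718), while it was -4.61 without wt day 16 replicate 1 and -2.22 without replicate 2, both called.

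For the interval from day 0 to day 4, no member was called in the same comparison for Dnmt1-/- (0% of all probe sets were) or TKO (1.38%), with 0 and 2 at an unadjusted limma p under 0.05. The Plac1 value in TKO was -2.77 (SE 0.67, limma adjusted p = 0.068), and it was called when the dimmest 30% of probe sets were left out (limma adjusted p = 0.047). Ascl2 gave -0.89 in TKO (SE 0.34, limma adjusted p = 0.342). For day 4 to day 16, Ascl2 gave 1.32 in TKO (SE 0.34, limma adjusted p = 0.0578), and it was called with the replicate number as a block (limma adjusted p = 0.0397).

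Among the members, the arrays of wt day 16 differed most for Prl2c5, Tpbpa and Prl7d1. Replicate 2 exceeded replicate 1 by 3.69 for Prl2c5, 2.40 for Tpbpa and 1.92 for Prl7d1, where the median absolute gap over all probe sets was 0.25. For Prl4a1 the gap was 0.38. In TKO day 16, replicate 2 exceeded replicate 1 by 1.90 for Prl2c5, 0.96 for Prl4a1 and 0.93 for Prl7d1. No member had a gap over 0.44 in Dnmt1-/- day 16. The relatives Prl7a1 and Prl3d3, given below, differed more between those Dnmt1-/- arrays than between the wt arrays. The mean signal of 7 parietal endoderm markers (Lama1, Lamb1, Col4a1, Col4a2, Sparc, Thbd and Sox7) was 8.37 and 9.31 in wt, higher in replicate 2 as the hormones were. It was 9.41 and 9.46 in Dnmt1-/-, and 8.04 and 7.94 in TKO, where it did not follow the gap of Prl2c5. Among the other cell type markers given below, the wt means of visceral endoderm (10.19 and 9.63) and ESC (7.36 and 6.90) were lower in replicate 2. Cardiac mesoderm was level (9.34 and 9.34), while fibroblast (9.91 and 10.08) and trophoblast stem cell (6.53 and 6.83) were higher in replicate 2. The part of these cell types in the replicate gaps was not tested.

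Some of the other hormones of the prolactin family, from a list of 22 genes of which 17 entries were measured, moved in the same interval. From day 4 to day 16, 6 were called higher in wt, 11 in Dnmt1-/- and 8 in TKO, and none lower. Against this, 3.94%, 2.39% and 0.794% of all probe sets were called higher. The medians of the list were 0.95, 2.65 and 1.72. Prl2a1 rose by 5.01 in wt (SE 0.62, limma adjusted p = 0.000186), Prl8a9 by 4.58 in wt (SE 0.43, limma adjusted p = 2.1e-05) and Prl7b1 by 4.40 in Dnmt1-/- (SE 0.41, limma adjusted p = 5.55e-05). From day 0 to day 4, none of the 17 was called in any genotype.

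At day 16, 5 entries of this list were called higher in Dnmt1-/- than in wt (1.53% of all probe sets were) and none lower. Prl7a1 read 3.53 and 4.51 in wt, 8.07 and 6.54 in Dnmt1-/-, and 5.88 and 6.50 in TKO. Both mutants lay above both wt arrays, by 3.28 in Dnmt1-/- (SE 0.42, limma adjusted p = 0.000457) and 2.17 in TKO (limma adjusted p = 0.00404). Prl3d3, a placental lactogen gene close to Prl3d1, read 4.00 and 3.20 in wt, 7.28 and 5.55 in Dnmt1-/-, and 4.34 and 5.49 in TKO, with a call in Dnmt1-/- (2.82, SE 0.48, limma adjusted p = 0.00369) and none in TKO (1.32, limma adjusted p = 0.1). The remaining ones were Prl2c1 (2.58, limma adjusted p = 0.0253), Prl5a1 (1.76, limma adjusted p = 0.0179) and a probe set shared by several Prl2c genes, which names no single gene. In TKO, Prl7a1 and Prl5a1 (2.36, limma adjusted p = 0.00131) were called higher (2.4% of all probe sets) and Prl8a9 and Prl2b1 lower (3.43%).

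Prl8a9 followed Tpbpa rather than Prl4a1. Prl8a9 read 6.99 and 8.63 in wt, 6.22 and 7.07 in Dnmt1-/-, and 5.30 and 4.66 in TKO at day 16. The TKO arrays lay below all others, and the difference from wt was -2.83 (SE 0.43, limma adjusted p = 0.000781). Prl2b1 differed by -1.52 (SE 0.30, limma adjusted p = 0.00449). In Dnmt1-/- the differences were -1.16 and -0.84 (limma adjusted p = 0.172 and 0.152), neither called. Prl5a1, Prl2b1 and Ctsr were named to complete their counts, after their values were seen.

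**Figure D4:**
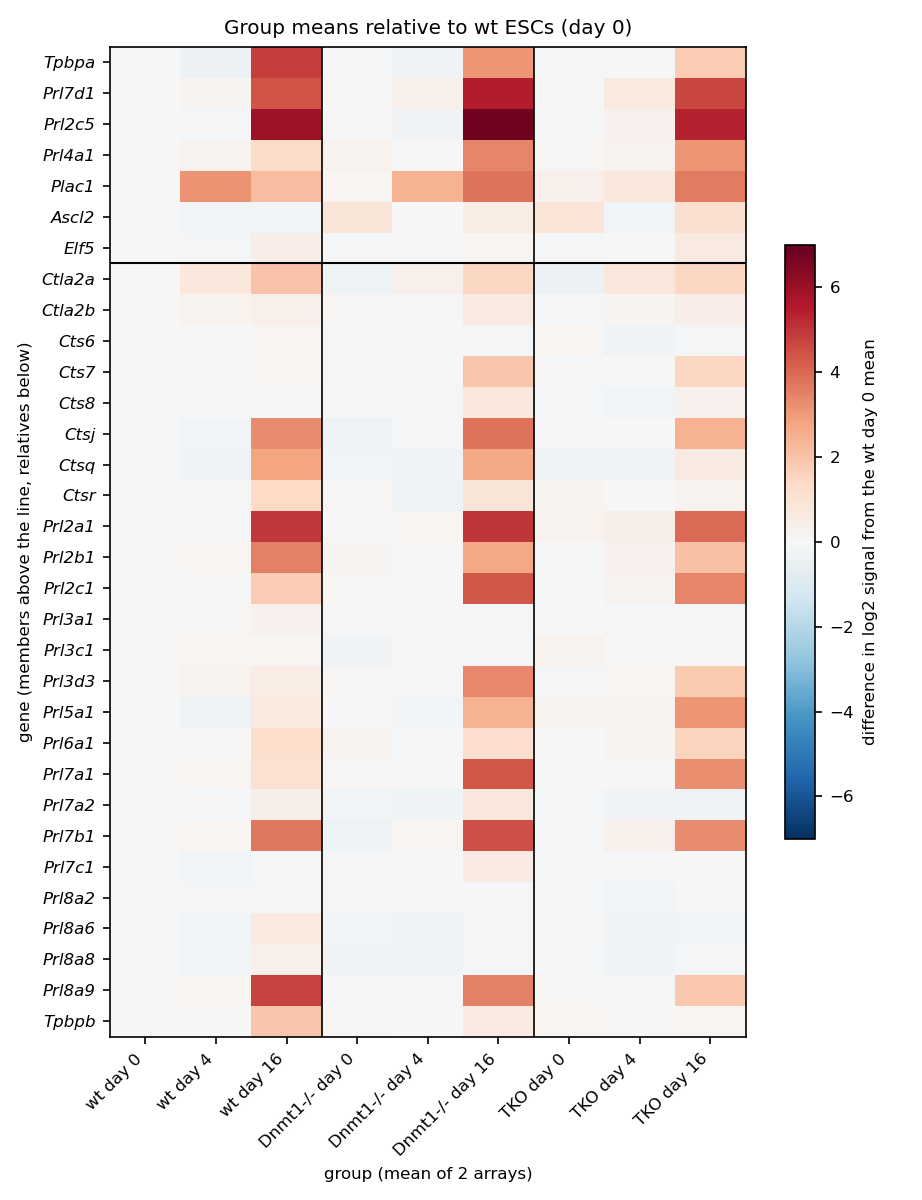
Group means of the members and of relatives measured by a probe set of their own. Colour gives the log2 difference from the wt day 0 mean (2 arrays a group), with members above the line and the prolactin, cathepsin and Tpbpb genes below it. Most of the colour stands in the 3 columns of day 16, with Plac1 as the exception at day 4.

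The heat map of group means shows relatives without a call next to strong risers of the same family. Prl3a1, Prl3c1 and Prl8a2, picked from the plot, had differences of -0.14 to 0.19 from day 4 to day 16 in the 3 genotypes. The placental cathepsins and Tpbpb form a second group of trophoblast genes. Of 10 entries measured, 4 were called higher from day 4 to day 16 in wt, 3 in Dnmt1-/- and 1 in TKO. This compares with 3.94%, 2.39% and 0.794% of all probe sets. The medians of the 10 entries were 0.84, 0.96 and 0.36, and none was called lower. Ctsj, a placental cathepsin, rose by 3.89 in Dnmt1-/- (SE 0.46, limma adjusted p = 0.000314), and Ctsq rose by 3.02 in wt (SE 0.48, limma adjusted p = 0.00121).

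Tpbpb, the near relative of Tpbpa, read 4.20 and 4.80 in wt, 3.25 and 3.02 in Dnmt1-/-, and 2.62 and 2.72 in TKO at day 16. The genotypes did not overlap and stood in the order of Tpbpa. Both TKO values lay within the range of 2.37 to 2.83 that Tpbpb had over all arrays of day 0 and day 4, and no detection value was used, so the TKO level may be background. The difference from wt was -1.82 in TKO (SE 0.20, limma adjusted p = 5.16e-05) and -1.36 in Dnmt1-/- (SE 0.20, limma adjusted p = 0.00104), both called. Ctsq (5.04 and 7.10 in wt, 3.76 and 4.12 in TKO) was called lower in TKO by -2.13 (SE 0.48, limma adjusted p = 0.0107), and so was Ctsr (-1.15, limma adjusted p = 0.0319). Cts7 was called higher in Dnmt1-/- (1.79, SE 0.40, limma adjusted p = 0.0193) and in TKO (1.31, limma adjusted p = 0.0481).

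The list drawn up for regulators of trophoblast stem cells and of the lineage gave calls in both directions. Of 22 measured, 2 were called higher and 3 lower from day 4 to day 16 in wt, 4 and 1 in Dnmt1-/- and 6 and 1 in TKO, where 3.94%, 2.39% and 0.794% of all probe sets were called higher. The shares called lower over this interval are not given here, so the lower counts were not weighed against them. The list had medians of 0.14, 0.40 and 0.63. In wt, Eomes fell by 3.34 (SE 0.57, limma adjusted p = 0.00173), Hand1 fell by 2.19 (SE 0.26, limma adjusted p = 0.000153) and Cdx2 fell by 1.71 (SE 0.24, limma adjusted p = 0.000415). These genes also mark early mesoderm or posterior embryonic cells. In TKO, Sfmbt2 rose by 1.88 (SE 0.30, limma adjusted p = 0.0067), Tfap2c by 1.77 (SE 0.33, limma adjusted p = 0.0152) and Gata3 by 1.51 (SE 0.26, limma adjusted p = 0.0111). Against wt at day 16, TKO had 2 of the list higher (2.4% of all probe sets) and 3 lower (3.43%). Among them were Tfap2c (1.21, SE 0.33, limma adjusted p = 0.0274), Tcf21 (-3.48, SE 0.39, limma adjusted p = 7.55e-05) and Id2 (-1.91, SE 0.43, limma adjusted p = 0.0105). Tcf21 rose in wt by 2.72 from day 4 to day 16 (SE 0.39, limma adjusted p = 0.00055). The fibroblast markers Postn and Col1a2 rose there as well (5.21 and 5.13) and were lower in TKO at day 16 (-4.84 and -4.85). Whether Tcf21 reports trophoblast here was not tested.

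The defining markers of trophoblast stem cells (Cdx2, Eomes, Elf5, Tfap2c and Gata3) had a mean signal of 6.53 and 6.83 in wt, 7.02 and 6.91 in Dnmt1-/-, and 7.27 and 7.02 in TKO at day 16. Of these 5, none was called between Dnmt1-/- and wt, and Tfap2c alone was called higher in TKO.

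Pregnancy-specific glycoproteins, secreted by spongiotrophoblast and giant cells, were measured with their Ceacam relatives. Of 21 genes, 3 were called higher from day 4 to day 16 in wt, 3 in Dnmt1-/- and 2 in TKO, against 3.94%, 2.39% and 0.794% of all probe sets, with medians of 0.37, 0.08 and 0.13. Ceacam9 was higher in TKO than in wt at day 16 by 2.37 (SE 0.38, limma adjusted p = 0.00119) and Ceacam15 higher in Dnmt1-/- by 2.06 (SE 0.35, limma adjusted p = 0.00343), whereas Ceacam3 was lower in Dnmt1-/- (-1.22, limma adjusted p = 0.0181) and Psg28 lower in TKO (-1.14, limma adjusted p = 0.0043).

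The syncytiotrophoblast and labyrinth are the exchange layers of the placenta. From day 4 to day 16, 5 of their 15 genes were called higher in wt, 3 in Dnmt1-/- and 2 in TKO. The shares of all probe sets were 3.94%, 2.39% and 0.794%, and none of the 15 was called lower. Syna, which encodes the fusion protein syncytin-A, rose by 1.72 in wt (SE 0.44, limma adjusted p = 0.0212), and Gjb2, a gap junction gene, rose by 2.90 in wt (SE 0.41, limma adjusted p = 0.00048). At day 16, Slc16a1, a monocarboxylate carrier, was higher in Dnmt1-/- than in wt by 1.25 (SE 0.16, limma adjusted p = 0.000559), and Hsd11b2, which inactivates glucocorticoids, was lower in TKO by -1.32 (SE 0.25, limma adjusted p = 0.00328).

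Of 23 other placental genes measured, 9 were called higher from day 4 to day 16 in wt, 10 in Dnmt1-/- and 6 in TKO. Called higher among all probe sets were 3.94%, 2.39% and 0.794%. In wt, 1 of the 23 was called lower, a count with no share of all probe sets beside it. Phlda2, an imprinted brake on placental growth, was higher in Dnmt1-/- than in wt at day 16 by 2.28 (SE 0.32, limma adjusted p = 0.000853). Igf2, an imprinted growth factor that fetal mesoderm and liver make as well, was lower in TKO by -5.14 (SE 0.31, limma adjusted p = 7e-07). Cyp11a1, the first enzyme of steroid synthesis, was lower in TKO by -1.72 (SE 0.30, limma adjusted p = 0.00217).

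Markers of other cell types differed between the genotypes at day 16 as well. For comparison, 3.94% of all probe sets were called higher from day 4 to day 16 in wt, 2.39% in Dnmt1-/- and 0.794% in TKO. Against wt at day 16, 2.4% were called higher and 3.43% lower in TKO, and 1.53% higher in Dnmt1-/-. The share called lower in Dnmt1-/- is not given here, so its counts of lower calls were not weighed against one. Of the 7 parietal endoderm markers, 5 were called higher from day 4 to day 16 in wt, 6 in Dnmt1-/- and none in TKO, and 3 were lower in TKO than in wt at day 16. Of 7 visceral endoderm markers, 6, 7 and 6 were called higher over the same interval, and their mean signal at day 16 was 10.19 and 9.63 in wt, 10.96 and 10.48 in Dnmt1-/-, and 9.70 and 9.03 in TKO. All 5 ESC markers were called higher in TKO than in wt at day 16 and 3 in Dnmt1-/-, with means of 7.36 and 6.90 in wt, 8.82 and 8.66 in Dnmt1-/-, and 10.11 and 10.11 in TKO. Of 5 fibroblast markers, 4 were lower in TKO and 3 in Dnmt1-/-, with means of 9.91 and 10.08 in wt, 8.76 and 8.47 in Dnmt1-/-, and 7.12 and 6.38 in TKO. Of 5 cardiac mesoderm markers, 4 were lower in TKO and 1 in Dnmt1-/-, with means of 9.34 and 9.34 in wt, 8.44 and 8.96 in Dnmt1-/-, and 6.76 and 7.53 in TKO. The means stood in the order of Tpbpa for the fibroblast and cardiac lists and in the reverse order for the ESC list. The part of these cell types in the differences of the members was not tested.

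The members fell into patterns across the 18 arrays, described here by Pearson's r over arrays that share groups and days. Prl7d1 and Prl2c5 correlated at 0.989 and Prl7d1 and Prl4a1 at 0.933, whereas Tpbpa correlated with Prl2c5 at 0.914, with Plac1 at 0.435 and with Ascl2 at -0.002. The genes most like Tpbpa were Csf1r (0.990), the receptor of a macrophage growth factor that trophoblast also carries, Prl8a9 (0.980), Fnd3c2 (0.972), Rsad2 (0.968) and Psap (0.968). Csf1r averaged 8.20 in wt, 6.74 in Dnmt1-/- and 6.17 in TKO at day 16, with SDs of 0.78, 0.13 and 0.18 (n = 2). As Csf1r was picked by its r over these arrays, its order, shared with Tpbpa, is no separate result. Those most like Prl2c5 were Prl2a1 (0.994), Prl7b1 (0.987), Arhgef6 (0.982), Sct (0.976) and Serpinb9e (0.975), so that both leading names belong to the same hormone family.

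Plac1 was most like Clic6 (0.929), Podxl (0.926), Ugdh (0.926), Acss3 (0.915) and Irx3 (0.912). Clic6 averaged 8.09 in wt, 7.38 in Dnmt1-/- and 6.20 in TKO at day 4, which is the order of Plac1 on that day. Since Clic6 was picked by its r over these arrays, a shared order is no separate result. At day 16, Clic6 averaged 8.22, 10.07 and 8.37, with TKO near wt. Plac1 averaged 7.07, 8.72 and 8.60, with TKO near Dnmt1-/-. Ascl2 was most like Treml2 (0.913), Smc1b (0.908), Osbpl10 (0.894), Arih2 (0.883) and Stra8 (0.866). Smc1b and Stra8 are genes of germ cell meiosis. Smc1b averaged 4.81 in wt, 7.07 in Dnmt1-/- and 7.28 in TKO at day 0, and 4.48, 6.76 and 7.78 at day 16. Smc1b was picked by its r as well, so its likeness to Ascl2 is no separate result.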

How the data were processed

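RNA of 18 samples (9 groups of 2 arrays) was hybridised to Affymetrix Mouse Gene 1.0 ST arrays. As log2 signals, the authors deposited RMA output, 1 value per probe set and array, after background correction, between-array normalization and probe summary. For RMA no version is given in the sources. No further normalization was done, with all 35512 probe sets kept (21789 with 1 symbol, 1621 with several, 12102 with none). In R 4.3.3, limma 3.58.1 estimated the 9 group means from all arrays and tested contrasts of them with plain eBayes, on 9 residual and 3.32 prior degrees of freedom. Calls need an absolute log2 difference of at least 1 and a Benjamini-Hochberg adjusted p under 0.05 over all probe sets of a comparison. Every adjusted p is this value, and every SE that of the fit (median 0.203, and 0.287 for a difference of changes). The fit was tested on simulated data that gave each gene the same spread in all 9 groups. A group with a larger spread, as wt day 16 had for the genes named below, was not simulated. With 2 arrays a group, their number limits the precision, and p-values measure the spread between these samples, pooled for each gene over all 9 groups. For Prl2c5, Tpbpa and Prl7d1 the spread was largest in wt day 16 (SDs of 2.61, 1.70 and 1.36). The SEs and p-values of their comparisons with wt day 16 may therefore be too small.

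Named were all members, up to 4 called genes of each list for the change from day 4 to day 16 and up to 4 for the mutant comparisons at day 16, by size, the 5 probe sets with 1 symbol most like Tpbpa, Prl2c5, Plac1 and Ascl2, and the methyltransferases. A gene of a list with several probe sets was taken from that with the highest mean signal, and not all genes named by the rule are printed. Members and lists were chosen with earlier results of these data known. Promoter windows were read from RefSeq tables by symbol, which matched all 7 members measured. Alternatives were median subtraction, quantile normalization, a filter on low signals, the replicate number as a block, trend and robust variance, a false discovery rate over all comparisons, only the arrays compared, and each array left out.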

Additional observations from a re-analysis of the deposited data

Results flagged for a closer look

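In 4 cases the change of a member from day 4 to day 16 differed between a mutant and wt by the limma test of the difference itself. Prl4a1 changed by 2.30 more on the log2 scale in Dnmt1-/- (SE 0.38, limma adjusted p = 0.0131) and by 1.77 more in TKO (SE 0.38, limma adjusted p = 0.0241). Plac1 changed by 3.92 more in TKO (SE 0.67, limma adjusted p = 0.00641), with a wt level that peaked at day 4 and a TKO level that rose after it. Tpbpa changed by -3.41 in TKO relative to wt (SE 0.71, limma adjusted p = 0.0209). Both mutants share the wt arrays in these comparisons, and of the 4 only the Plac1 value was called without each of the arrays in turn.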

How the results depend on the processing

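Of the 39 calls of members over 22 comparisons, all 39 kept their direction and call under median subtraction, quantile normalization, trend and robust variance and a false discovery rate over all comparisons, and 33 of the 33 that could be tested did so without the 30% of probe sets of lowest signal. No call reversed. A fit of only the arrays compared kept 31 of 39. It gave a count of 0 in place of 1 for Dnmt1-/- from day 0 to day 4, 2 in place of 1 for Dnmt1-/- against wt at day 16, and, for the difference of changes from day 4 to day 16, 0 in place of 1 in Dnmt1-/- and 1 in place of 3 in TKO; fewer arrays enter it. For the difference of changes from day 0 to day 4 in TKO, that fit, the filter on low signals and the joint false discovery rate each gave 1 in place of 0, the gene being Plac1.

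With the replicate number as a block, all 39 calls were kept and no count moved by over 1.5 times. For the change of Plac1 from day 0 to day 4 in wt the blocked value was 3.16 (limma adjusted p = 0.00146). The block added Tpbpa in TKO from day 0 to day 16 (limma adjusted p = 0.0472), Plac1 in TKO against wt at day 16 (limma adjusted p = 0.0495) and Ascl2 in the difference of changes from day 4 to day 16 in TKO (limma adjusted p = 0.0397), which the filter on low signals and the joint false discovery rate called as well (limma adjusted p = 0.0455 and 0.0448). The correlation of same-numbered deviations between groups was 0.041 to 0.50 (median 0.27). It was over 0.1 in 32 of 36 pairs of groups, short of every pair, and the labels do not say what a shared number marks. Whether the numbers pair the samples was not settled, and the values without the block were kept.

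Leaving out each array in turn gave counts of 0 to 0 for TKO from day 0 to day 4, 2 to 4 for TKO from day 4 to day 16, 0 to 1 for each genotype comparison at day 4, 1 to 3 for Dnmt1-/- against wt at day 16, and 0 to 2 (Dnmt1-/-) and 1 to 3 (TKO) for the difference of changes from day 4 to day 16. Background limits what can be said of Tpbpb in TKO at day 16 and of the hormones before day 16. Their signals there lay below the array medians of 5.77 to 5.90, and no detection p was used here. Prl4a1 in wt (5.20 and 5.58) and Tpbpa in TKO (5.12 and 5.13) lay below these medians at day 16 too. Both still exceeded every earlier array of their genotype. Prl7a1 and Prl3d3 in wt were also below the medians at day 16. Below them too were Tpbpb in wt and Dnmt1-/-, and Prl3d3, Prl8a9 and Ctsq in TKO. Elf5 read 5.86 or less on every array. The sizes of the day 16 differences of these genes are therefore uncertain.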
